A study of Mus musculus with 6 samples.

Results

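Serpins are a large family of protease inhibitors, and 9 of their mouse genes were followed here through RNA-seq of leukemia cells. The 9 members were chosen by symbol as rows of the count table, 9 of its 23608 rows. They were the Serpina3 genes Serpina3f, Serpina3g, Serpina3h, Serpina3i and Serpina3n and the intracellular clade B genes Serpinb1a, Serpinb6a, Serpinb6b and Serpinb9. They were singled out with earlier results on these same libraries in view, so their oil and tamoxifen values below are a description and carry no test. The cells were AE9a leukemia cells, made by retroviral delivery of AML1-ETO9a (a truncated AML1-ETO fusion) together with GFP into fetal liver cells. All of them, in both groups, carried 1 floxed and 1 intact copy of Usp18 (genotype Usp18+/f) and UBCER-Cre, a tamoxifen-activated Cre driven by the ubiquitin C promoter in all tissues. Recipient mice that had become sick received oil (genotype kept as Usp18+/f) or tamoxifen (genotype given as Usp18+/Δ), and GFP+ Lin- c-Kit+ splenocytes were sorted 3 days after the first injection. Each group had 3 libraries, described as separate mice. Tamoxifen itself and the recombined allele cannot be told apart in this comparison, and the cells of all recipients descend from transplanted material, with how many separate leukemias were used not given in the sources used here.

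A serpin holds out a flexible reactive center loop as bait for a protease. When the protease cuts the loop, the serpin springs into a new fold and traps the enzyme in an inactive covalent complex, so each inhibitor molecule is spent once. Clade A serpins such as human antichymotrypsin are mostly secreted, and the single human gene is represented in the mouse by a row of Serpina3 copies. Serpina3g, also known as Spi2A, is one of the copies that act inside the cell, where it inhibits lysosomal cysteine proteases such as cathepsin B. Clade B serpins stay in the cytosol and nucleus and guard blood cells against granule proteases of their own or of neighboring killer cells.

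The sort label was checked first. Kit, the receptor used in the gate, lay between 439 and 782 CPM (library-scaled counts by the TMM method of edgeR) in the 6 libraries, whereas Ptprc, which encodes CD45, was at most 0.679 CPM and Mpo at most 0.207 CPM. Library totals ran from 17118964 to 20741399 counts, so that 3 counts, taken below as the limit that a count of 0 allows, were worth 0.145 to 0.177 CPM. For Usp18, the targeted gene, oil 1, 3 and 4 gave 9.12, 11.0 and 11.2 CPM, and the libraries labelled tamoxifen 1, 2 and 4 gave 15.1, 28.0 and 19.4 CPM (log2 fold change 0.998 ± 0.23 SE, adjusted p = 0.0739 in edgeR's quasi-likelihood test). All 3 tamoxifen libraries were above all oil libraries for the gene meant to be depleted, a pattern shown by 13.3% of tested genes. That goes against a depletion of its RNA, though the label keeps 1 intact copy, so the group is called by its label only. The part of the gene that the floxed allele removes is not given in the sources used here, so a count over the whole gene may not show the deletion. Tamoxifen 4 stood apart from the other tamoxifen libraries: without it 2278 of 11851 tested genes were called higher, against 203 of 11614 with all libraries, where a call is an adjusted p under 0.05. Fold changes of the tested members are therefore given with and without tamoxifen 4.

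The Serpina3 members lie in a row on chromosome 12 and parts of their promoters align with each other. RefSeq start sites (GRCm38.p6) were found for 7 of the 9 members, without Serpina3h and Serpinb1a. The 250 bases before the start are shown for the gene with the widest range of values (Serpina3g), for its neighbor on each side with a promoter in the table (Serpina3f and Serpina3i), for the member that stayed at 0 (Serpina3n), and for Serpinb9, whose level was among the steadiest. Of 2 start sites listed for Serpina3f, the first is shown. Sequences are written 5′ to 3′ on the gene's strand, and capitals mark matches to any of 4 motifs searched on both strands.
Serpina3f, chr12:104214294-104214543, plus strand: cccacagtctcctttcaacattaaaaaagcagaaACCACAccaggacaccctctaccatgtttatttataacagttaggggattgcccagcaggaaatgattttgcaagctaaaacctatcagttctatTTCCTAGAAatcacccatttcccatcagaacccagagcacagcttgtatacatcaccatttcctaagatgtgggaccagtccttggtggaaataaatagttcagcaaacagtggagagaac
Serpina3g, chr12:104235897-104236146, plus strand: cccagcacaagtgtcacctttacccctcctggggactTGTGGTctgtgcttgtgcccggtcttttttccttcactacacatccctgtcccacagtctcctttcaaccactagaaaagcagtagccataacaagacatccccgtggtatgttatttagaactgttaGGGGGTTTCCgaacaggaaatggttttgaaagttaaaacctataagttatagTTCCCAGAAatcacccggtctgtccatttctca
Serpina3i, chr12:104262872-104263121, plus strand: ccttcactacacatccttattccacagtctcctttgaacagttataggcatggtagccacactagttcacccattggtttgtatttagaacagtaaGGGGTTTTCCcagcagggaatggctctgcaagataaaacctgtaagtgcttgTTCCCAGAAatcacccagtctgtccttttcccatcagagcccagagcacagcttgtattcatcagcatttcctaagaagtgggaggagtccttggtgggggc
Serpina3n, chr12:104406458-104406707, plus strand: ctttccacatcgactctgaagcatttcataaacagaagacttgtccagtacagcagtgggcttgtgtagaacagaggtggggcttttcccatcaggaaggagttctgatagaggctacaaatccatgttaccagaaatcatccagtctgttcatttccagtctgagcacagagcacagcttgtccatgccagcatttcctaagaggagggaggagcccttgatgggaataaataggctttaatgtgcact
Serpinb9, chr13:33004291-33004540, plus strand: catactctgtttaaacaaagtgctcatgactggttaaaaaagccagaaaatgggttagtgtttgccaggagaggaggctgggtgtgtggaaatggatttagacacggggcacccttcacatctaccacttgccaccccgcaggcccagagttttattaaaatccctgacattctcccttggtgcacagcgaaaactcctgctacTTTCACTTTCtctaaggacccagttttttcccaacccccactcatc

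The motifs were the core of the interferon-stimulated response element (ISRE, GAAA repeated with 2 free bases between), the gamma-activated site bound by STAT factors (GAS, TTCNNNGAA), the RUNX site (TGTGGT), which the DNA-binding part of AML1-ETO recognizes, and the NF-kB consensus. They occurred in 2.97%, 7.02%, 14.04% and 7.25% of all 32807 promoter windows of this length. A GAS match stood 121 to 113 bases before the start of Serpina3f, 33 to 25 before that of Serpina3g and 102 to 94 before that of Serpina3i, and it read TTCCCAGAA in the last 2 and TTCCTAGAA in the first. Serpina3g and Serpina3i also held an NF-kB match, 85 to 76 and 154 to 145 bases before the start, and Serpina3f and Serpina3g a RUNX match at 216 to 211 and 213 to 208. These letters were not found in the window of Serpina3n. The Serpinb9 window held an ISRE match 46 to 37 bases before its start, and the distal of 2 Serpinb6a windows held an ISRE match at 84 to 75 that overlapped a GAS match at 77 to 69. No match was found in the Serpinb6b window. Aligned stretches of the Serpina3f and Serpina3g promoters were 82.6% identical over 144 bases, and those of Serpina3g and Serpina3i 82.6% over 178 bases. A match is a string of letters and says nothing about binding in these cells.

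Serpina3g was nearly silent in oil and reached 149 and 155 CPM in 2 of 3 tamoxifen libraries. Oil 1 held 1 count, oil 3 held 0 and oil 4 held 5. Tamoxifen 1 held 2722.5, tamoxifen 2 held 2629 and tamoxifen 4 held 118.5. The oil values correspond to 0.0563, 0 and 0.257 CPM and the tamoxifen values to 149, 155 and 6.55 CPM, with means of 0.105 ± 0.135 and 104 ± 84.2 (SD, n = 3). No tamoxifen library overlapped the oil range, and the tamoxifen libraries fell into a pair at nearly the same level and 1 far below it: the mean of tamoxifen 1 and 2 was 23.3-fold that of tamoxifen 4. Relative to the 6 counts of the 3 oil libraries together, the tamoxifen libraries together were 990.1-fold higher (95% exact interval 455 to 2699), and tamoxifen 4 alone was 62.8-fold higher (28.0 to 175). These intervals cover counting error only, and not the spread between mice. The fitted log2 fold change was 9.87 ± 1.58 (SE), and 10.43 without tamoxifen 4. It was 11.61 without oil 4, which held 5 of the 6 oil counts, and 9.27 without oil 3.

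**Figure D1:**
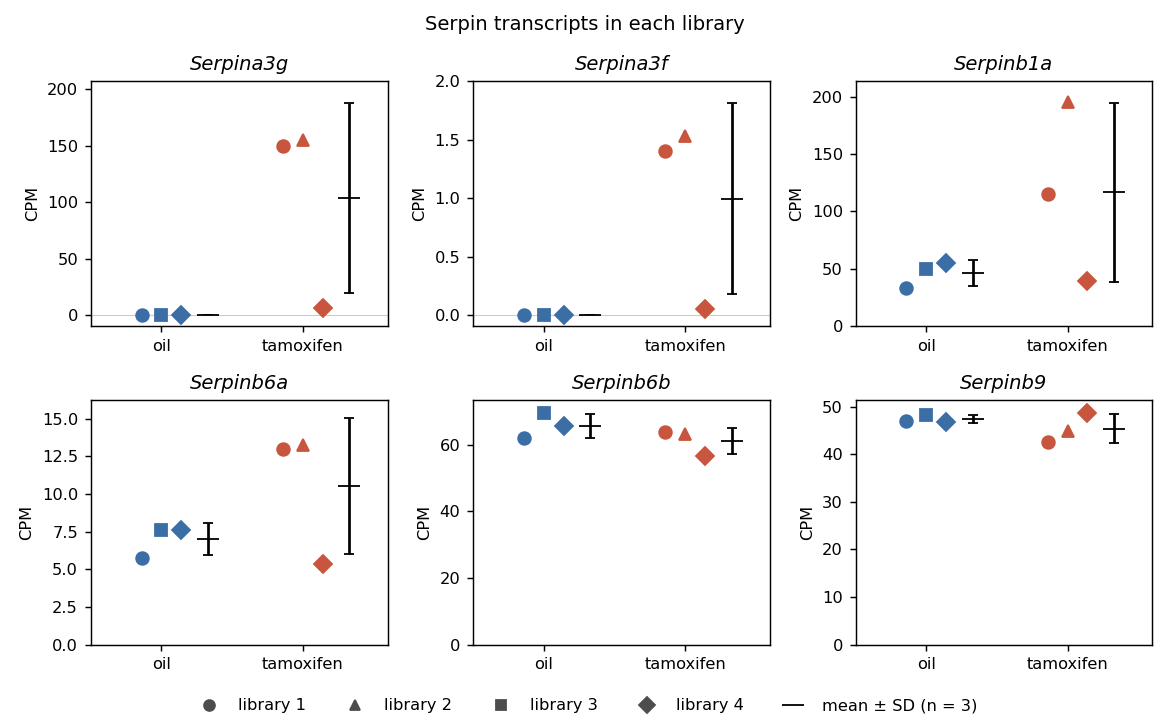
CPM (vertical axis, linear, a separate scale in each panel) of 6 serpin genes in the 3 oil and 3 tamoxifen libraries, one symbol per library, with the mean ± SD (n = 3) beside each group. For Serpina3g, Serpina3f, Serpinb1a and Serpinb6a tamoxifen 4 lies far below tamoxifen 1 and 2, whereas Serpinb6b and Serpinb9 stay within 56.8 to 69.5 and 42.6 to 48.8 CPM in all 6 libraries.

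Its nearest neighbor, Serpina3f, showed the same order of libraries at about a hundredth of the level. No count of Serpina3f was recorded in oil, beside 25.5, 26 and 1 counts in tamoxifen 1, 2 and 4 (1.40, 1.54 and 0.0552 CPM). With oil set to 3 counts per library (0.156 CPM on average), the tamoxifen mean was at least 6.38-fold higher, while tamoxifen 4 alone was below that limit. Of the counts given to the 2 genes, Serpina3f took 0.946% in tamoxifen 1 (95% Wilson interval 0.646 to 1.38), 0.979% in tamoxifen 2 (0.669 to 1.43) and 0.833% in tamoxifen 4 (0.147 to 4.57), after rounding to whole counts. These intervals too cover counting error only, and the share in tamoxifen 4 rests on 1 count and cannot be compared with the others.

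The other 3 Serpina3 members were at or near 0. Serpina3h, annotated as a transcribed pseudogene, had 0 counts in oil and 1.5, 1.5 and 0 in tamoxifen 1, 2 and 4. Serpina3i had 0 in oil and 1, 0.5 and 0 in tamoxifen. Serpina3n, the secreted acute-phase member that inhibits granzyme B and neutrophil proteases, was at 0 in all 6 libraries. No fold change is given for these 3, since both groups were under 3 counts per library.

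The paralogs share sequence, so the small counts of the neighbors may depend on how reads were assigned. The longest annotated transcripts of Serpina3f and Serpina3g were 90.4% identical over 1727 aligned bases, those of Serpina3g and Serpina3h 94.3% over 835 bases, and those of Serpina3g and Serpina3i 89.2% over 1724 bases. Of all 50-base windows of Serpina3f transcripts, 6.03% occurred without mismatch in Serpina3g, as did 14.1% of those of Serpina3h, 6.76% of those of Serpina3i and 2.53% of those of Serpina3n. At 150 bases, the length of each read of the study's paired-end runs, no member shared an identical window with another. Summed over the 5 Serpina3 members, oil 1, 3 and 4 held 1, 0 and 5 counts and tamoxifen 1, 2 and 4 held 2750.5, 2657 and 119.5 counts, a log2 fold change of 9.89 ± 1.58 (SE), so the value for the cluster does not depend on how reads were split within it. Whether any Serpina3f, Serpina3h or Serpina3i count came from Serpina3g molecules was not tested.

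**Figure D2:**
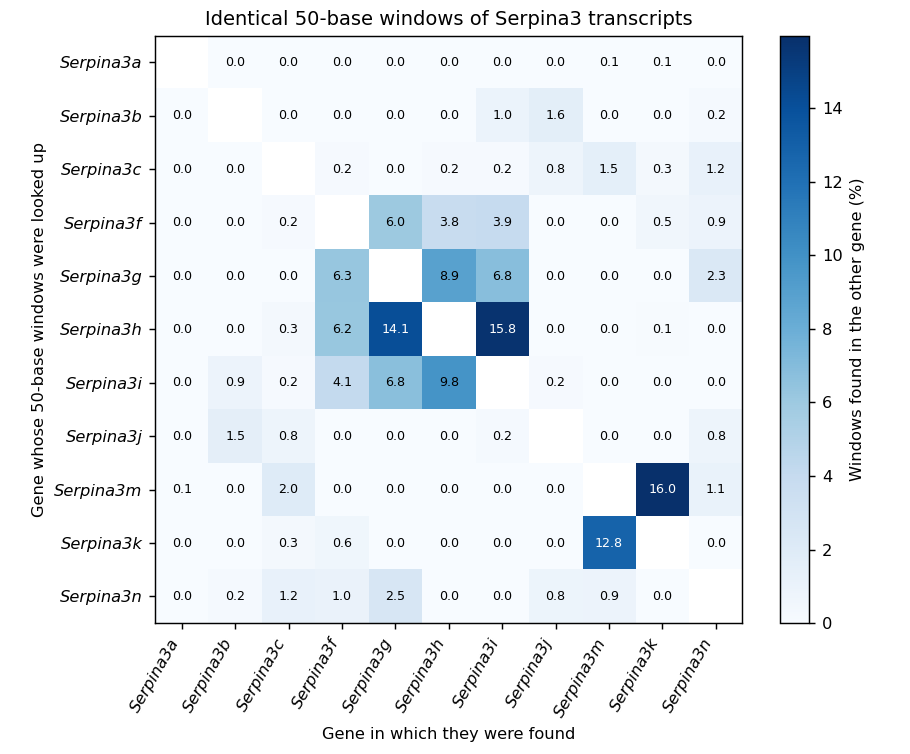
Percentage of identical 50-base windows (color scale and printed value) of the transcripts of each Serpina3 gene, in rows, that also occur in each other gene of the cluster, in columns. Sharing of Serpina3g with Serpina3f, Serpina3h and Serpina3i runs from 6.0 to 14.1%, and the highest values are between Serpina3m and Serpina3k and between Serpina3h and Serpina3i.

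The signal at the cluster was concentrated in a single gene. Of 11 Serpina3 genes in the table, spread over 301.606 kb, 7 were at 0 in all libraries, 9 never passed 3 counts and 1, Serpina3g, passed the filter on low counts. In mm10 Serpina3f lies at chr12:104214544-104221129, Serpina3g at chr12:104236245-104241939, Serpina3h at chr12:104247905-104253669, Serpina3i at chr12:104263122-104269372 and Serpina3n at chr12:104406729-104414329, all on the plus strand. The Serpinb cluster on chromosome 13 differed in that several of its genes were already well expressed in oil: of 15 genes over 1160.703 kb, 8 were at 0, 9 never passed 3 counts and 5 passed the filter. Its members are Serpinb1a (chr13:32842092-32851185, minus strand), Serpinb6b (chr13:32965209-32979067, plus), Serpinb9 (chr13:33003250-33017957, plus) and Serpinb6a (chr13:33917918-34002794, minus).

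**Figure D3:**
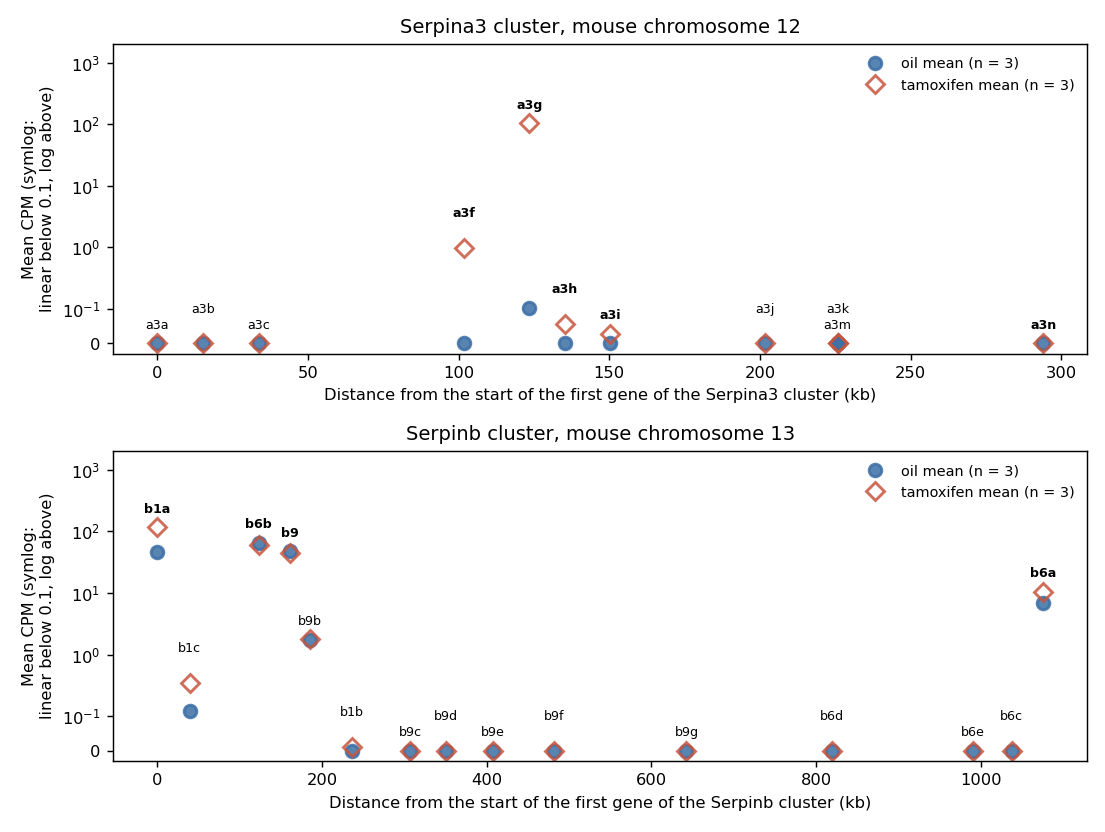
Mean CPM of the oil and tamoxifen libraries (n = 3 each, vertical axis linear below 0.1 and logarithmic above) for each gene of the Serpina3 and Serpinb clusters, by distance in kb from the start of the first gene, with members in bold. In the upper panel Serpina3g stands at 104 CPM between neighbors near 0, and in the lower panel Serpinb6b and Serpinb9 have nearly the same mean in both groups.

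Serpinb1a, an inhibitor of neutrophil elastase, proteinase 3 and cathepsin G, was the member with the next widest range. Oil 1, 3 and 4 gave 33.2, 49.8 and 55.2 CPM. Tamoxifen 1 and 2 gave 115 and 195 CPM and tamoxifen 4 gave 38.9 CPM. Group means were 46.1 ± 11.5 and 116 ± 78.2 CPM (SD, n = 3). The groups overlapped, because tamoxifen 4 was inside the oil range at 0.843 times the oil mean, whereas tamoxifen 1 and 2 together averaged 3.36 times it. The log2 fold change was 1.33 ± 0.49 (SE) with all libraries and 1.75 without tamoxifen 4, and it was 0.74 without tamoxifen 2, the highest library.

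Serpinb6a, a cytosolic inhibitor of cathepsin G, followed the same order at a lower level. The oil libraries gave 5.77, 7.58 and 7.61 CPM. Tamoxifen 1, 2 and 4 gave 12.98, 13.3 and 5.33 CPM, with group means of 6.99 ± 1.06 and 10.5 ± 4.50 CPM (SD, n = 3). Tamoxifen 4 was below every oil library, and tamoxifen 1 and 2 averaged 1.88 times the oil mean. The log2 fold change was 0.59 ± 0.33 (SE), 0.91 without tamoxifen 4 and 0.39 without tamoxifen 2. On the opposite strand its locus contains Nqo2 (748.5 to 963.5 counts per library) and overlaps the start of Ripk1 (1192 to 1360 counts), both far above the 96.5 to 236.5 counts given to Serpinb6a. Whether the counting used strand is not given in the sources used here, so reads of these genes may be mixed.

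Serpinb6b and Serpinb9 were the steady members. Serpinb6b, a close relative of Serpinb6a reported to inhibit granzyme A, gave 62.2, 69.5 and 65.6 CPM in the oil libraries, beside 63.8, 63.3 and 56.8 CPM with tamoxifen (65.8 ± 3.68 and 61.3 ± 3.90, SD, n = 3). Serpinb9, the inhibitor with which cytotoxic cells and their targets block granzyme B, gave 47.0, 48.3 and 46.8 CPM in the oil libraries, beside 42.6, 45.0 and 48.8 CPM with tamoxifen (47.4 ± 0.842 and 45.4 ± 3.11). The groups overlapped for both genes. Their log2 fold changes were -0.10 ± 0.09 and -0.06 ± 0.09 (SE), and without tamoxifen 4 they were -0.05 and -0.11. Over the 6 libraries the coefficient of variation was 6.60% for Serpinb6b and 4.96% for Serpinb9, beside 2.91% and 3.41% from counting alone. Transcripts of Serpinb6a and Serpinb6b were 89.7% identical over 464 aligned bases, and 8 identical 50-base windows were common to both. When the 2 were summed, the log2 fold change was -0.02 ± 0.11 (SE), since Serpinb6b is the larger part.

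The spread between libraries of a group separated the members as clearly as the levels did. The biological coefficient of variation estimated by edgeR, the relative spread that remains after counting error, was 0.814 for Serpina3g, 0.405 for Serpinb1a and 0.289 for Serpinb6a, beside a median of 0.134 over all tested genes. That placed them above 99.9%, 97.4% and 90.7% of tested genes. The spread was wider among tamoxifen libraries, where tamoxifen 4 was the lowest for each of these genes. In the same order, the SD of log2 CPM was 2.61, 1.18 and 0.743 in tamoxifen and 0.893, 0.387 and 0.229 in oil. The oil value of Serpina3g rests on counts of 1, 0 and 5, so it cannot be told apart from counting error. Serpinb6b at 0.0969 and Serpinb9 at 0.0974 were steadier than most, with 11.9% and 12.8% of tested genes lower. Of the 5 members that passed the filter on low counts, 1 was called higher (Serpina3g) and 0 lower, where 1.75% of all tested genes were called higher and 0.267% lower. The same member was the only one of the 5 with all tamoxifen libraries above all oil libraries, a pattern shown by 13.3% of tested genes, and 0 of the 5 had all of them below, against 11.8% of tested genes. The median log2 fold change of the 5 was 0.59, beside 0.00 over all genes. Without tamoxifen 4, 4 of 6 members tested were called higher (Serpina3f, Serpina3g, Serpinb1a and Serpinb6a), where the background was 19.2%. In the fits without oil 1, oil 3, oil 4, tamoxifen 1 and tamoxifen 2 in turn, 0 members were called, where the background was 0.0674%, 0.135%, 0.0675%, 0.0936% and 0.119%. Serpina3g passed the filter only through the tamoxifen libraries, as did Serpina3f in the fit without tamoxifen 4. These counts of calls describe members picked on the same comparison and are not evidence about them.

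Levels were compared between genes per kilobase of annotated exon. In oil the order was Serpinb6b (29.1 ± 1.63 CPM per kb, SD, n = 3), Serpinb1a (20.0 ± 4.98), Serpinb9 (13.6 ± 0.241), Serpinb6a (1.29 ± 0.195) and Serpina3g (0.0496 ± 0.0642), and the library ranges of no 2 neighbors in that order overlapped. Against the 11428 tested genes with a length, these levels stood at the 82.4th, 73.6th, 62.7th, 16.4th and 0.464th percentile. In tamoxifen Serpinb1a (50.5 ± 34.0 CPM per kb) and Serpina3g (49.3 ± 40.0) came first, ahead of Serpinb6b (27.1 ± 1.73), Serpinb9 (13.004 ± 0.891), Serpinb6a (1.95 ± 0.831) and Serpina3f (0.435 ± 0.357). The ranges of Serpinb1a and Serpina3g overlapped, as did those of Serpina3g and Serpinb6b, so the first 3 places are not separated beyond the spread. By its longest transcript in place of all its exons, the oil level of Serpinb6a was 3.19 CPM per kb, in the same place of the order.

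The make-up of serpin RNA as a whole differed between libraries with these genes. Summed over 64 serpin family symbols, oil 1, 3 and 4 gave 154, 181 and 181 CPM. The sum was 394 CPM in tamoxifen 1, 489 in tamoxifen 2 and 163 in tamoxifen 4. Serpina3g made up 37.9%, 31.7% and 4.01% of the sum in tamoxifen 1, 2 and 4 and at most 0.142% in oil. Serpinb6b made up between 36.3% and 40.4% of the sum in oil, 16.2% and 12.9% in tamoxifen 1 and 2 and 34.8% in tamoxifen 4, while its own CPM lay between 56.8 and 69.5 throughout. With Serpina3g left out the sums were 245, 334 and 157 CPM in tamoxifen, so that tamoxifen 1 and 2 were still above the highest oil library, mostly through Serpinb1a. The 9 members held 95.8% to 97.7% of the serpin sum in every library.

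**Figure D4:**
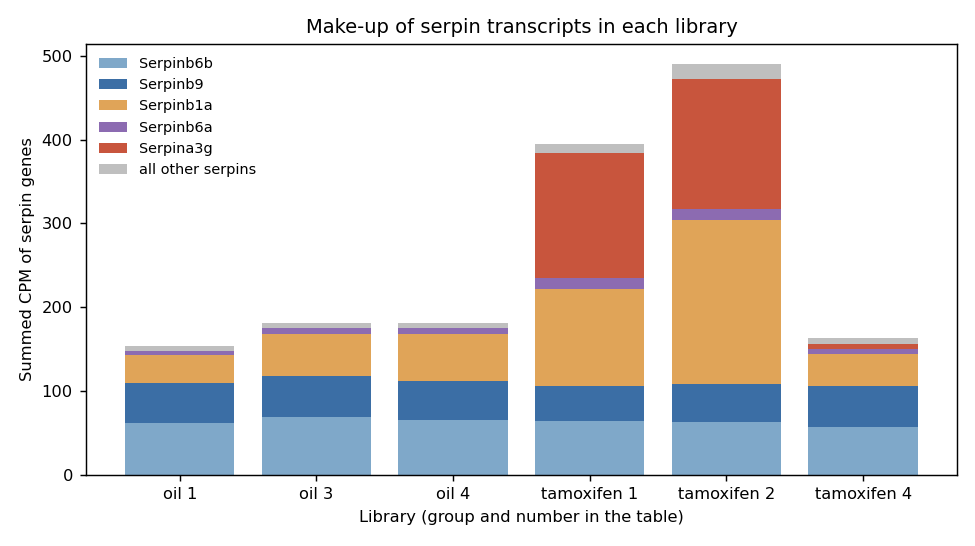
Stacked CPM (vertical axis, linear from 0) of serpin genes in each library, with 5 members in color and all other serpins in grey. Tamoxifen 1 and 2 reach 394 and 489 CPM through added Serpina3g and Serpinb1a on a similar base of Serpinb6b and Serpinb9, whereas tamoxifen 4 at 163 CPM resembles the oil libraries in height.

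Beyond the members the family was largely silent. Of 55 other serpin symbols, 42 were at 0 in all 6 libraries and 4 passed the filter on low counts. None of the 21 other clade A genes and 2 each of 23 other clade B genes and 11 genes of other clades were tested, with medians of 1.02 and 0.62 in log2 fold change for the last 2 lists. In edgeR 0 of the 4 were called, with 1 at an unadjusted p under 0.05, and DESeq2 called 1 of 7 higher, against 5.86% of all genes it tested. That gene was Serpinb12, a clade B serpin, with 0.957, 1.41 and 1.13 CPM in the oil libraries and 3.73, 8.09 and 2.24 CPM with tamoxifen (log2 fold change 1.99 ± 0.49 SE, 2.33 without tamoxifen 4, adjusted p = 0.0859 in edgeR and 0.00265 in DESeq2). All 3 of its tamoxifen libraries were above the oil range. The log2 fold change of Serpini1 (neuroserpin, an inhibitor of plasminogen activators) was 1.04, with an adjusted p of 0.249 in edgeR. That of Serpinb9b, a paralog of Serpinb9, was 0.05 (adjusted p = 0.934). Serpine3, too low to test, lay between 0.0886 and 0.591 CPM.

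Proteases of the classes that serpins act on were taken from lists of serine proteases and of cysteine proteases of lysosomes with caspases. Cystatins, the other intracellular inhibitors of cysteine proteases, formed a further list. Whether each listed protease is a serpin target was not checked. Of 53 genes, 52 were in the table and 29 were tested. In edgeR 3 were called higher and 0 lower (1.75% and 0.267% of all tested genes), with 15 at an unadjusted p under 0.05 (20.6% of all tested genes). Among serine proteases 2 of 15 were called higher (median log2 fold change 1.74), among cysteine proteases 1 of 10 (0.16) and among cystatins 0 of 4 (0.20). The serine list includes mast cell proteases such as Tpsb2, Cma1 and Mcpt1, so its median is in part a value of mast cell genes. Gzmb, the granule protease that Serpinb9 blocks, had 0.796, 5.79 and 1.33 CPM in tamoxifen 1, 2 and 4 and at most 1 count in any oil library (adjusted p = 0.0454). Tpsb2, a mast cell tryptase, went from 0.113, 0.315 and 0.283 CPM in oil to 2.00, 8.92 and 2.43 CPM (adjusted p = 0.0402). Casp4, an inflammatory caspase, went from 1.21, 0.654 and 0.720 CPM to 4.39, 2.95 and 2.57 CPM (adjusted p = 0.0454, all in edgeR). Each of the 3 calls held without tamoxifen 4 and was lost without any one of the other 5 libraries. Gzmb and Tpsb2 passed the filter on low counts only through their tamoxifen libraries. The lists were chosen with earlier results of these data known, so these calls are a description. For Gzmb and Tpsb2 tamoxifen 4 was above tamoxifen 1, the reverse of Serpina3g, and for Casp4 it was the lowest of the 3 tamoxifen libraries.

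Abundant genes of these lists did not pass the test. Cma1, a mast cell chymase, gave 246, 241 and 318 CPM in the oil libraries and 876, 2170 and 557 CPM with tamoxifen (2.16 ± 0.45, adjusted p = 0.0551). Furin, a proprotein convertase, was at 199, 198 and 174 CPM and at 376, 462 and 195 CPM (0.85 ± 0.27, adjusted p = 0.149). Furin repeated the order seen for Serpinb1a, with tamoxifen 4 among the oil values. Ctsb, the cathepsin that Serpina3g is known to inhibit, was at 461, 490 and 441 CPM and at 540, 544 and 413 CPM (0.11 ± 0.12, adjusted p = 0.621), and the log2 fold change of Mcpt1, another chymase, was 0.07, with an adjusted p of 0.832. The neutrophil proteases that Serpinb1a targets were named after their values were seen. Elane was at 0 in all 6 libraries. Prtn3 lay between 0.309 and 0.535 CPM in oil and between 0.525 and 1.004 CPM in tamoxifen, with overlapping groups (adjusted p = 0.310 in edgeR). Ctsg lay between 0.929 and 1.47 CPM in oil and between 2.39 and 5.64 CPM in tamoxifen, without passing the test (adjusted p = 0.0746 in edgeR).

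**Figure D5:**
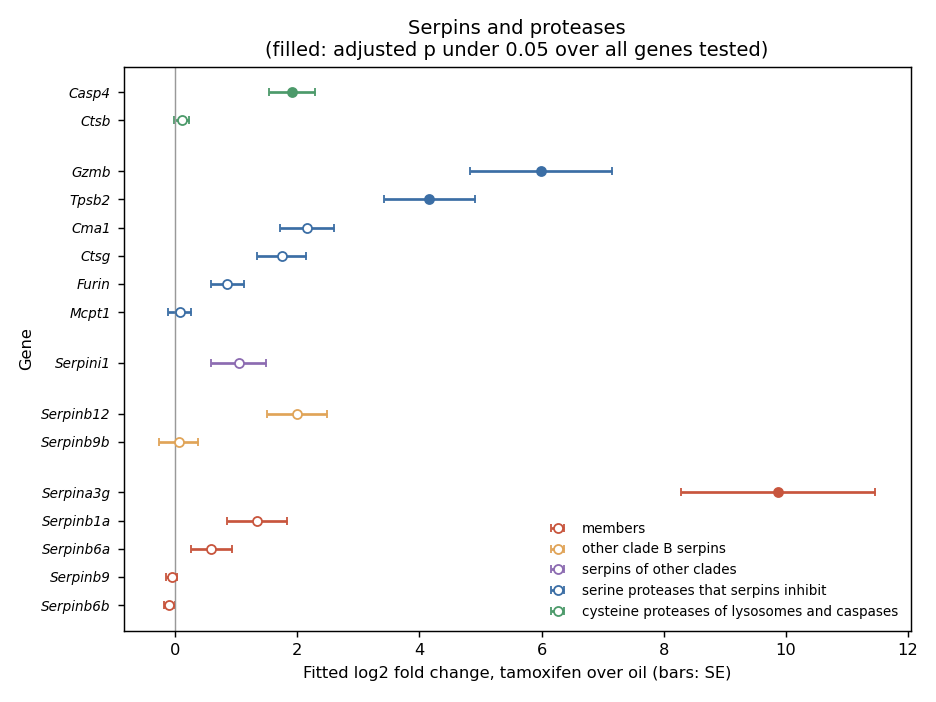
Fitted log2 fold change of tamoxifen over oil (horizontal axis, bars are SE) for the tested serpins and proteases named in the text, except Prtn3. Filled points mark an adjusted p under 0.05 over all genes in edgeR. The fitted values of Serpina3g and Gzmb rest on at most 5 and 1 counts in any oil library, and Serpinb6b and Serpinb9 lie at -0.10 and -0.06.

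Markers of other cells were read beside the members, since fewer cells of a type and less RNA per cell cannot be told apart in bulk libraries. Mast cell and basophil markers summed to between 2893 and 3088 CPM in oil and to 4836, 7453 and 3634 CPM in tamoxifen 1, 2 and 4. Of the 9, 7 had all tamoxifen libraries above all oil libraries (13.3% of all tested genes) and 2 were called higher (1.75% of all tested genes), namely Tpsb2 and Fcer1a (log2 fold change 2.12, adjusted p = 0.0381 in edgeR). T and NK cell markers summed to between 1.13 and 2.57 CPM in oil and to 20.0, 56.4 and 7.65 CPM in tamoxifen, nearly all of it from Nkg7, which was called higher (log2 fold change 4.03, adjusted p = 0.0410 in edgeR), while Cd3e, Cd8a, Ncr1, Prf1 and Klrb1c were at 0 in every library. The order of tamoxifen libraries in both sums was 2, 1, 4, as for Serpinb1a. The macrophage, erythroid and leukemia and progenitor marker sums had that order too, so it sets none of these lists apart. The low B cell and hepatocyte marker sums did not have it.

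Macrophages are cells in which Serpina3g is known to be inducible. Their markers summed to between 3.93 and 7.77 CPM in oil and to 9.55, 13.2 and 6.63 CPM in tamoxifen 1, 2 and 4. Of 6 tested, 0 were called, where 1.75% of all tested genes were called higher and 0.267% lower. For 2 of the 6 all tamoxifen libraries were above all oil libraries (13.3% of all tested genes). Erythroid markers summed to between 3828 and 6102 CPM in oil and to 7121, 7462 and 3065 CPM in tamoxifen. Neutrophil markers were at most 0.649 CPM in sum, B cell markers at most 0.933, endothelial and stromal markers at most 0.675 and hepatocyte markers at most 2.96, with Alb and Ttr at 0. Of 7 leukemia and progenitor markers 3 were tested and 1 was called higher (1.75% of all tested genes). That gene was Cd34 (log2 fold change 3.27, adjusted p = 0.0232 in edgeR). Kit (log2 fold change 0.49, adjusted p = 0.202) and Myb (0.08, adjusted p = 0.599, both in edgeR) were not called. Flt3 was at 0 in all libraries. The part of the cells behind any of these sums in the serpin values was not tested.

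The genes whose profile was most like that of Serpina3g over the 6 libraries were Mthfd2l, Cd34, Dennd2d, Dusp23 and Numbl, with Pearson correlations of log2 CPM from 0.996 to 0.998 among 11138 genes with a mean of at least 1 CPM. Cd34, a surface marker of progenitors, gave 9.68, 8.41 and 11.7 CPM in the oil libraries and 113, 134 and 41.8 CPM with tamoxifen, so its tamoxifen 4 value also fell between the groups. Among members the correlation with Serpina3g was 0.82 for Serpinb1a, 0.74 for Serpinb6a, -0.35 for Serpinb6b and -0.73 for Serpinb9. Serpinb9 was most like Taf12, Lrpprc, Pdf, Atp5f1 and Sec63, at 0.984 to 0.999. The 6 libraries share the oil and tamoxifen split, so these values describe a shape and carry no test.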

How the data were processed

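RNA from sorted GFP+ Lin- c-Kit+ splenocytes was sequenced in paired 150-base reads. Per the submitters' processing notes STAR, DESeq2 and the mm10 build were used. The authors deposited 1 table of estimated counts per gene: its values are multiples of 0.5 and are not normalized, and the counting program, strand setting and annotation are not given in the sources used here. The table spelled 26 symbols as dates. Its columns number the mice differently from the sample titles, so libraries were placed in groups only and are named by the table's numbers.

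Counts were rounded and fitted with edgeR 4.0.16 in R 4.3.3 (filterByExpr by group, TMM, quasi-likelihood test, Benjamini-Hochberg over 11614 genes, two-sided, threshold 0.05) on all 6 libraries without covariates. P-values weigh the difference between the groups against the spread between libraries of a group, which edgeR moderates across genes. The fit was tested on simulated data. DESeq2 1.42.0, other scaling and filters, a replicate block and each library left out were alternatives. CPM use TMM-scaled totals, with depths of 17118964 to 20741399 counts. Lengths, positions and transcripts are from GENCODE M21 (GRCm38, that is mm10), which held 97.6% of symbols, and promoters are from RefSeq (GRCm38.p6). Transcripts were aligned locally with Biopython 1.88.

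The members and gene lists were chosen with earlier results of these data known. Named were the members, Usp18, other serpins that passed the test and the 5 most abundant, of proteases and cystatins the 5 largest calls and 5 most abundant, up to 3 called genes per marker list, and the 5 genes most like Serpina3g and Serpinb9. Some genes that the naming rule or the lists would give are not reported here. Another batch and the ATAC-seq libraries were not analysed here.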

Additional observations from a re-analysis of the deposited data

How the results depend on the processing

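Among all genes, 203 were called higher and 31 lower. DESeq2 called 747 and 223, no filter on low counts gave 372 and 61, and a mean of at least 50 counts gave 120 and 17. Leaving out 1 library gave 8 to 2278 higher and 0 to 2024 lower, the highest counts without tamoxifen 4. Of other serpins 0 were called, but DESeq2 and the fit without a filter each called 1 higher, and leaving out 1 library gave 0 to 1. Of proteases and cystatins 3 were called higher and 0 lower. DESeq2 gave 12 and 1, no filter 8, a mean of at least 50 counts 0 since low genes were removed, and leaving out 1 library 0 to 17 higher and 0 to 3 lower. DESeq2 size factors within edgeR and, chosen after seeing the data, unrounded counts moved none of these counts by over 1.5 times. The cause of these differences was not tested. Member fold changes kept their direction under every alternative run except the Serpinb6 sum, at -0.02 against 0.59 for Serpinb6a. With a prior count of 2 the log2 fold change of Serpina3g was 8.94.

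The groups share the table numbers 1 and 4, which no source ties to a litter or day. Deviations from group means correlated at -0.13 and 0.06 for these pairs. A replicate block gave 215 genes higher and 26 lower, 5 proteases and cystatins higher, and log2 fold changes of 8.57 for Serpina3g, 0.65 for Serpinb1a and 0.34 for Serpinb6a, with 1 residual degree of freedom.

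Depth limits Serpina3f, Serpina3h and Serpina3i, whose counts were few or 0, and a value of 0 allows up to 3 counts per library.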
